A study of Mus musculus with 17 samples.

Results

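The 5 genes described here, Sort1, Sorl1, Sorcs1, Sorcs2 and Sorcs3, encode the VPS10 sorting receptors and were followed among the 40824 genes of a mouse pancreas single-cell data set. Sorcs2 was picked because of its rise in beta cells after streptozotocin (STZ), and the other 4 were taken as the rest of its family. Values of Sorcs2 in that contrast are therefore given as a description, with no test. All mice carried Ngn3-Cre and Rosa-RFP, which marks cells descended from endocrine progenitors that express Ngn3, and cells with RFP were sorted. Adult controls (Control, 3 libraries) were 2-month-old males given citrate buffer. Mice of the same sex, also 2 months old at injection, received 200 mg/kg STZ, a toxin of beta cells, in 1 injection. Their age when taken rose with time after STZ, so time and age cannot be told apart. With insulin implants they were taken on day 6, day 12 (2 libraries), day 30 and day 42 and in months 2, 5 and 9 (STZ_D6 to STZ_M9), which makes 8 libraries. The month 9 mice had implants with interruptions in their last 2 months. STZ_M2_NoIns (2 libraries) was taken in month 2 without implants. Untreated pups and young mice of the same genotype came from postnatal day 3 (P3), day 12 (P12, 2 libraries) and day 21 (P21).

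VPS10 receptors are type I membrane proteins that carry cargo between the Golgi apparatus, endosomes, secretory granules and the cell surface. Sortilin (Sort1) carries neurotensin, progranulin and lysosomal enzymes and pairs with the neurotrophin receptor p75. SorLA (Sorl1) holds the amyloid precursor protein in the Golgi and has been tied to insulin receptor recycling. SorCS1 lies in a mouse locus for diabetes susceptibility and is linked to the supply of insulin granules, while SorCS2 and SorCS3 are best known from neurons, where SorCS2 binds pro-neurotrophins. Their short cytosolic tails are read by sorting adaptors such as the GGA proteins, AP-1 and the retromer complex.

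The tails differ between family members, and the sequences that encode them are shown for the 3 genes with enough counts for testing in beta cells. Each line gives the last 150 coding bases, 5′ to 3′ and without the stop codon, of 1 principal transcript in the GENCODE annotation of GRCm38, the assembly that mm10 names.
Sort1: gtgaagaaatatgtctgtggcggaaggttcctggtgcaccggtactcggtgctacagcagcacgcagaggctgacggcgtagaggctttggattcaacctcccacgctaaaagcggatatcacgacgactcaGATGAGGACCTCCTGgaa
Sorl1: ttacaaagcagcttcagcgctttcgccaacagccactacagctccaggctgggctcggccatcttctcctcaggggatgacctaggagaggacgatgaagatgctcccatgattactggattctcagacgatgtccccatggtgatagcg
Sorcs2: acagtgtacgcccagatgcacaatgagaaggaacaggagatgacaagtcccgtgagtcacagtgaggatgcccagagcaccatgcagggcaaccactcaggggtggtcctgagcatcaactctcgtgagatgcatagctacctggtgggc
Capitals in Sort1 mark the codons of an acidic dileucine motif, a signal that GGA proteins bind. It is an aspartate followed by any pair of residues and then a pair of leucines. Other sequences that GGA proteins may bind were not searched. The motif was searched in frame on the coding strand only. It was found in the tail of Sort1 alone among the 5 genes in this window, beginning 18 bases before the end, and in the last 150 coding bases of 405 of 21701 genes (1.87%). Sort1 (ENSMUSG00000068747) lies on the plus strand at chr3:108284082-108361511 with 20 exons. Sorl1 (ENSMUSG00000049313) lies on the minus strand at chr9:41964720-42124297 with 48 exons. Sorcs2 (ENSMUSG00000029093) lies on the minus strand at chr5:36017180-36398139 with 27 exons. Sorcs1 (ENSMUSG00000043531, chr19:50143299-50678646, minus strand) and Sorcs3 (ENSMUSG00000063434, chr19:48206025-48805505, plus strand) lie on 1 chromosome. Genes on the other strand overlap Sorcs2 (Psapl1, 34 UMIs in the whole table), Sort1 (Gm12523, 33 UMIs) and Sorl1 (Gm16214, 45 UMIs). Whether reads were counted by strand is not given in the sources used here, so reads of these pairs may be shared.

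The table held counts of unique molecular identifiers (UMIs), 1 per captured molecule, for 2999 cells in 17 libraries of 22 to 295 cells. Library totals ran from 1420536 to 26298456 UMIs. Cells fell by their markers into 1015 beta cells, 596 alpha cells, 270 delta cells, 167 PP cells and, outside the endocrine classes, 767 acinar, 110 ductal and 38 immune ones. The ductal cluster was led by Tff3, Fcgbp, Clca3, Defa24 and Muc2, with Krt19 as the 1 ductal marker among its 10 leading genes. A further 36 cells, of P3, were left unnamed. The 5 genes took no part in the clustering. Insulin gene Ins2 was at 46491 UMIs or more per 1000000 UMIs in every beta sum. Gcg, Sst and Ppy were likewise abundant in alpha, delta and PP cells. However, the beta-cell factor Mafa was listed at 0 in every control and STZ beta sum. Several other beta markers were lower after STZ with implants, as given below. Beta cells numbered 211, 140 and 21 in the controls, 8 (STZ_M2) to 67 (STZ_M5) after STZ with implants, 5 and 11 without implants, and 62 to 131 in postnatal libraries. UMIs were summed per library and cell class, and levels are given as UMIs of the gene per 1000000 UMIs of that sum (CPM). In such sums, fewer cells with a transcript and less transcript per cell cannot be told apart. Over all cells the table held 8980 UMIs of Sort1, 4371 of Sorl1, 3207 of Sorcs2, 538 of Sorcs1 and 27 of Sorcs3. The labels do not tie replicates to separate animals, so p-values measure the spread between these libraries, which may be technical.

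Sorcs2, a receptor of pro-neurotrophins, was rarely counted in beta cells of control adults and was counted in every beta sum after STZ. Its level was 2.63, 0.472 and 1.46 CPM in control replicates 1, 2 and 3. After STZ with implants it was 29.98 on day 6, 46.8 and 56.0 in the libraries of day 12, 58.5 on day 30 and 53.3 on day 42. It was 35.4 in month 2, 38.3 in month 5 and 90.1 in month 9. All 8 STZ libraries lay above all 3 controls, with the lowest on day 6 and the highest in month 9. The fitted log2 difference was 4.97 ± 0.48 (SE), a 31.4-fold higher level, which restates the contrast on which the gene was picked. There 296 of 10730 genes (2.76%) were called at an adjusted p under 0.05, 178 (1.66%) of them as higher and 118 (1.1%) as lower. It was 6.22 without control replicate 1, the control with most Sorcs2 UMIs (37 of 43), and 4.43 without control replicate 2.

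**Figure D1:**
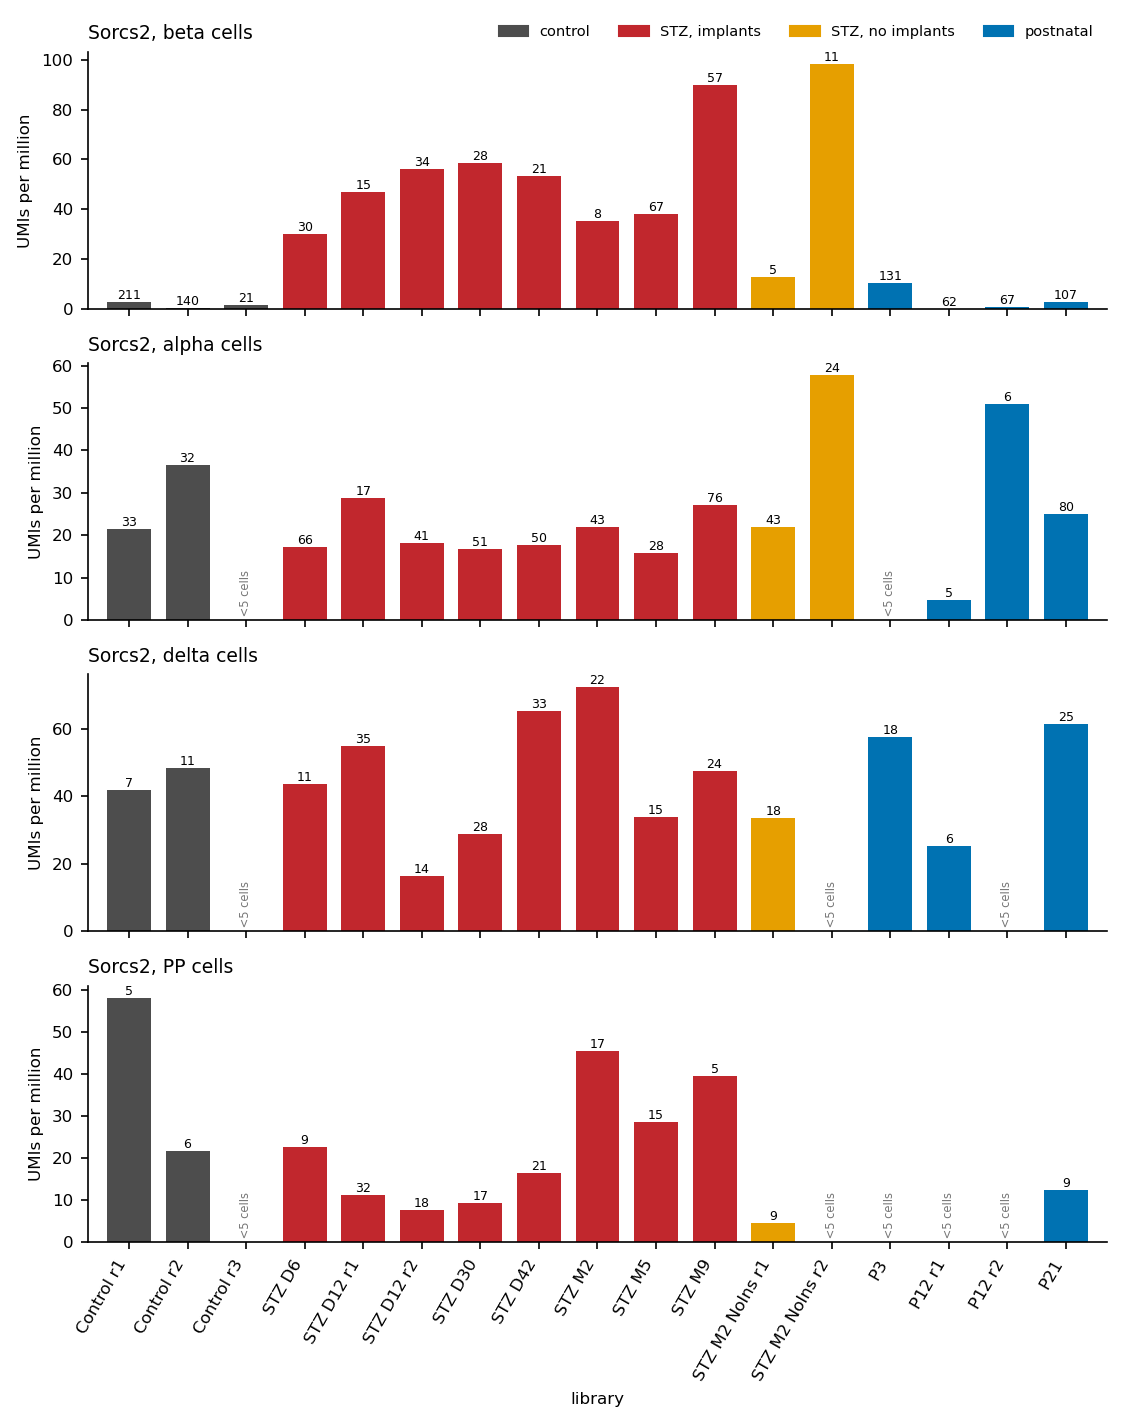
Sorcs2 level (CPM, 1 bar per library, linear axis from 0) in beta, alpha, delta and PP cells, coloured by group, with the number of cells above each bar and sums of under 5 cells left out. In beta cells the 8 libraries after STZ with implants (29.98 to 90.1) stand above the controls (0.472 to 2.63), while in alpha, delta and PP cells the control and STZ bars overlap.

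Detection in single beta cells followed the same split. A Sorcs2 UMI was found in 142 of 260 beta cells after STZ with implants (54.6%, exact 95% Clopper-Pearson interval 48.3% to 60.8%) and in 14 of 372 control beta cells (3.76%, 2.07% to 6.23%). These intervals cover counting error only, since cells of 1 library are not independent samples. With each cell thinned to 30444 UMIs, which left out 30 STZ and 31 control beta cells, the shares were 50.9% and 3.23%. Acinar cells, an exocrine class, gave 3.48% after STZ and 3.09% in controls at that depth, near the share in control beta cells. They gave 18.2% without implants (11 cells) and 5% in postnatal libraries (20 cells). Pooled over controls, the level was 1.80 CPM in beta and 0.61 in acinar cells. Whether the acinar counts are background was not tested. Per library the unthinned share ran from 26.7% in STZ_D12 replicate 1 to 71.4% in STZ_D42. The counts were spread unevenly among cells. Of the 260 cells, 75 held at least 5 Sorcs2 UMIs, 1 cell held 50, and the tenth of cells with most UMIs held 53.9% of the total. A median of 71943 UMIs was found in STZ beta cells with Sorcs2 and of 51466 in those without, so detection also moved with depth.

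**Figure D2:**
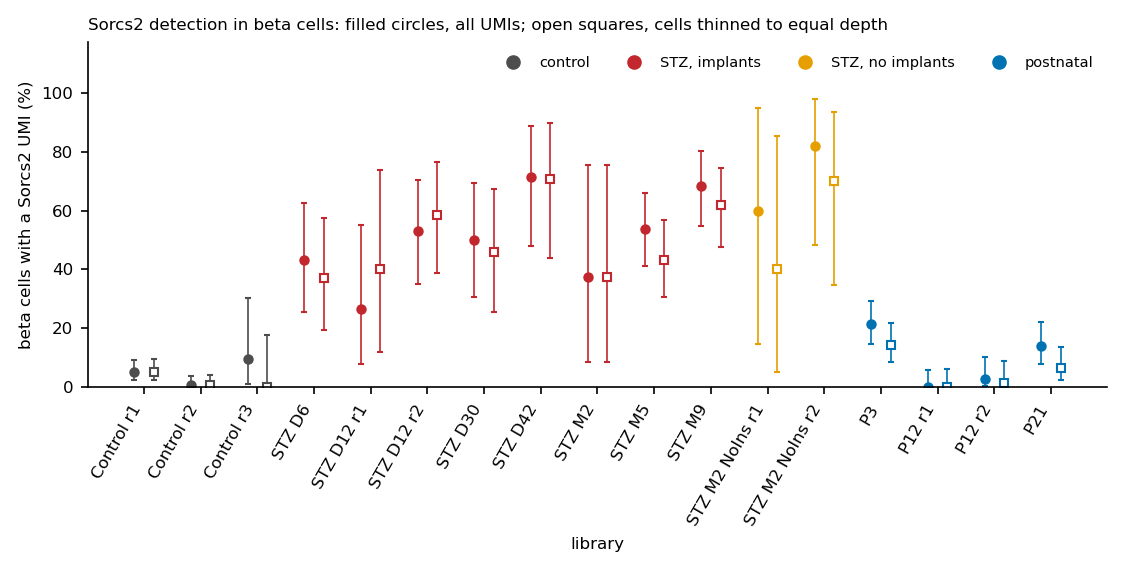
Share of beta cells with at least 1 Sorcs2 UMI per library (percent), for all UMIs (filled circles) and for cells thinned to 30444 UMIs (open squares), with exact 95% Clopper-Pearson intervals for counting error. Shares after STZ with implants run from 26.7% to 71.4% for all UMIs, and the control with the highest share stands at 9.52%.

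The summed markers of PP cells were also higher in the beta sums after STZ, while the sums of delta and alpha markers overlapped between the groups. The summed level of 5 PP markers was 9093 to 31665 CPM after STZ and 2757 to 5532 in controls, with no overlap. That of 7 delta markers was 747 to 5686 against 283 to 1260, and that of 8 alpha markers 2237 to 12448 against 4584 to 9569. In the delta list Rbp4 was higher after STZ with no overlap (379 to 992 against 48.1 to 150 in controls). Sst overlapped (341 to 5130 against 215 to 1081.5), and Ghsr was at 0 in 6 of 8 STZ libraries and 2 of 3 controls. In the alpha list Irx1 was at 0 in 6 of 8 STZ libraries and 0 of 3 controls. Slc7a2 was lower after STZ (62.0 to 93.0 against 97.1 to 152). Sums of 12 acinar markers overlapped (19418 to 35776 after STZ, 10309 to 32090 in controls). Sums of 9 beta markers overlapped too (120708 to 250891 after STZ, 239737 to 249287 in controls). Within the beta list Ins1, Ucn3, Slc2a2, G6pc2 and Nkx6-1 were lower after STZ with no overlap, while Ins2, Iapp and Pdx1 overlapped. Slc2a2 was at 32.8 to 108 after STZ and 445 to 613 in controls, and Ucn3 at 25.1 to 202 and 639 to 912. Beta cells with at least 1000 UMIs of Gcg, Sst, Ppy, Pyy or Prss2 per 100000 were then left out. They made up 16.4% (STZ_M5) to 57.9% (STZ_M9) of beta cells after STZ with implants and 3.79% to 19.05% in controls. This left 7 cells in STZ_D12 replicate 1 and 5 in STZ_M2. Sorcs2 was at 76.5 and 64.7 in the day 12 libraries, 36.5 on day 6, 72.02 on day 30, 50.1 on day 42, 57.5 in month 2, 38.8 in month 5 and 94.5 in month 9. Controls 1 to 3 were then at 2.05, 0 and 1.82. The log2 difference was 5.63 ± 0.61 (SE) without these cells and 4.97 with them. The names of raw read files begin with a code, whose meaning is not given in the sources used here. A single code covers cells of a control and of STZ libraries. Among its cells Sorcs2 was at 0.472 in control replicate 2 and at 30.3, 33.7 and 35.4 in STZ_D6, STZ_D30 and STZ_M2.

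Beta cells of STZ mice without implants were compared with the same 3 controls, so their Sorcs2 values are also a description with no test. Sorcs2 was at 12.7 CPM in replicate 1 (5 cells, 7 UMIs) and 98.3 in replicate 2 (11 cells, 77 UMIs), and both lay above every control. The log2 difference from controls was 5.06 ± 0.76 (SE), in a contrast where 286 of 13308 genes (2.15%) were called and the median over all genes was -0.17. It was 2.79 without replicate 2, which holds most of these cells. Among the STZ libraries with implants, where time after STZ is also age, no trend over time was called for Sorcs2. Its slope was 0.13 ± 0.08 (SE) log2 units per 1 unit of log2 days (edgeR, adjusted p = 1.00). edgeR called 0 of 10136 genes (0%) for that trend, with 314 at an unadjusted p under 0.05 and 12 called by DESeq2.

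Beta cells of young mice gave the Sorcs2 level before adulthood. P3 stood at 10.3 CPM, P21 at 2.77 and the P12 libraries at 0 and 0.520. Only P3 and P21 were above the highest control. All 131 beta cells of P3 fell into a cluster of 134 cells led by Dlk1, Nrep and Nnat, with no beta marker among its 10 leading genes. The other beta cluster, of 881 cells, held 0 cells of P3. Of the P3 beta cells 52.7% were rich in another hormone or Prss2, beside 3.79% to 19.05% in controls. That share was 16.4% to 57.9% after STZ with implants, and 80% and 72.7% in the libraries without implants. The 4 postnatal libraries overlapped the same controls, with a log2 difference of 0.92 ± 1.12 (SE). Sorcs2 was picked against these controls, so this value too is a description with no test. In that contrast 61 of 12595 genes (0.484%) were called. The thinned share of cells with a UMI was 14.3% in P3 and 6.59% in P21. None of the 4 values reached the 29.98 of STZ_D6, a comparison that was not tested.

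In the other endocrine classes Sorcs2 was present in controls. Alpha cells, the glucagon cells, had 21.5 and 36.5 CPM in the controls with at least 10 such cells and 15.9 to 28.8 (median 18.0) in the 8 STZ libraries with implants. These groups overlapped, with a log2 difference of -0.45 ± 0.36 (SE; edgeR adjusted p = 0.998). edgeR called 0 of 10976 genes (0%) in alpha cells, with 579 at an unadjusted p under 0.05 and 2 called by DESeq2. Delta cells, the somatostatin cells, had 41.96 (7 cells) and 48.4 (11 cells) in controls and 16.4 to 72.6 (median 45.7) after STZ. PP cells, the pancreatic polypeptide cells, had 58.1 (5 cells) and 21.6 (6 cells) in controls and 7.65 to 45.4 (median 19.7) after STZ. With so few control cells these classes could be tested only with a minimum of 5 cells per sum. Sorcs2 then differed by -0.04 ± 0.49 in delta and -0.76 ± 0.73 in PP cells (log2 ± SE; edgeR adjusted p = 0.989 and 0.815). edgeR called 0 of 8618 genes (0%) in delta cells (677 at an unadjusted p under 0.05, 0 by DESeq2) and 0 of 8380 (0%) in PP cells (779 and 1). Whether the difference in beta cells exceeds that in the other classes was not tested, since Sorcs2 was picked on the former.

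Among alpha, delta and PP cells, delta cells had the highest Sorcs2 level. It was higher in delta than in alpha cells in 10 of 11 libraries with at least 10 cells of each, by a log2 difference of 0.93 ± 0.24 (SE; edgeR with the library as a block, adjusted p = 0.00389). It was higher in delta than in PP cells in 6 of 6 libraries, all of them after STZ with implants, with a PP-minus-delta log2 difference of -1.08 ± 0.33 (SE; edgeR adjusted p = 0.0248). Without the STZ libraries and at a minimum of 5 cells that difference was -1.01 with an adjusted p of 0.676. In control replicate 1, with 5 PP and 7 delta cells, the order was the opposite. PP and alpha cells differed by -0.14 ± 0.33 (SE; adjusted p = 0.876). The fit called 2068 of 11820 genes (17.5%) between delta and alpha, 1448 (12.3%) between PP and delta and 879 (7.44%) between PP and alpha cells. The libraries after STZ, with or without implants, supply 9 of the 11 pairs. Without them the delta-minus-alpha difference was 0.98 with an adjusted p of 0.460. In controls beta cells were below alpha cells in Sorcs2 in 2 of 2 libraries. After STZ with implants beta cells were above alpha cells in 7 of 7, above PP cells in 5 of 5 and above delta cells in 4 of 7 libraries. In the postnatal libraries delta cells exceeded beta cells by 3.39 ± 0.68 on the log2 scale (SE; edgeR adjusted p = 5.25e-05, 589 of 13916 genes or 4.23% called). Alpha cells exceeded beta cells by 2.43 ± 0.85 (SE; adjusted p = 0.134, 320 genes or 2.3% called), and by 3.81 with an adjusted p of 0.00319 at a minimum of 5 cells, where 6.17% of genes were called. At a minimum of 10 cells only P21 and P3 entered that fit, both with delta sums, and P21 alone with an alpha sum. The fit had hardly more sums than terms, so its p-values rest on a spread shared over genes. Acinar cells stood at 0.61 in controls and 1.87 after STZ, and ductal cells at 0 and 2.34.

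**Figure D3:**
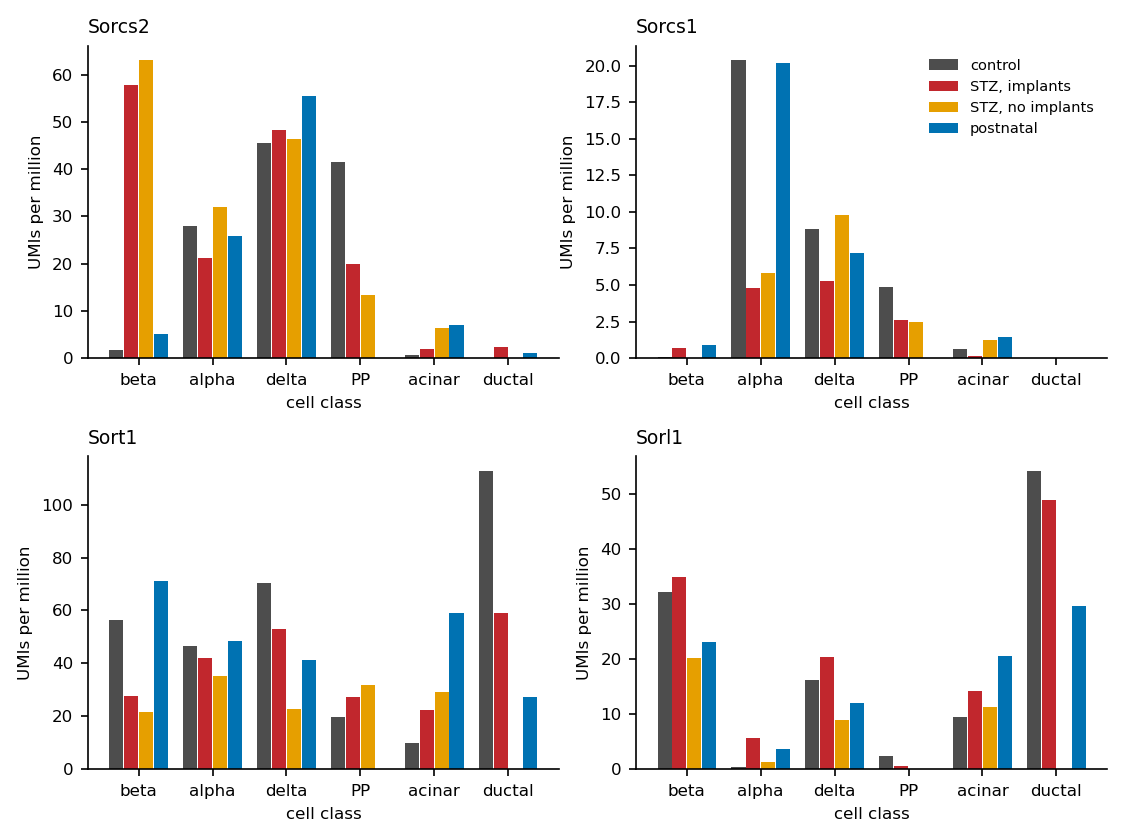
Level of Sorcs2, Sorcs1, Sort1 and Sorl1 (CPM over all cells of a class and group, pooled over libraries, linear axes from 0, with no error bars) in 6 cell classes, with a bar left out where the group had under 10 cells of the class. Sorcs2 is at 1.80 in control and 57.9 in STZ beta cells, Sorcs1 is highest in alpha cells in controls (20.4), where after STZ it is 4.77 in alpha and 5.29 in delta cells, and Sorl1 is highest in ductal cells (54.1 in controls).

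Sort1, which encodes sortilin, was lower in beta cells after STZ. Its level was 51.1, 65.1 and 54.6 CPM in the controls. It was 35.3 on day 6, 19.3 and 34.4 on day 12, 27.6 on day 30, 22.8 on day 42, 25.3 in month 2, 18.5 in month 5 and 33.3 in month 9. All 8 STZ libraries lay below all 3 controls. How many of all genes separate these groups as fully was not counted. The log2 difference was -1.07 ± 0.22 (SE; edgeR adjusted p = 0.00936), a 2.097-fold lower level. Sort1 and Sorl1 were the members tested in this contrast beside Sorcs2, and 1 of these 2 was called lower, beside 1.1% of all genes. With a replicate block by the labelled batch the difference was -0.96 with an adjusted p of 0.195, and without control replicate 2 it was -0.99 with an adjusted p of 0.0927. Without beta cells rich in another hormone it was -1.22 (adjusted p = 0.0483). Among cells with the file-name code shared by a control and STZ libraries, Sort1 was at 65.1 in control replicate 2. It was at 30.3, 50.6 and 25.3 in those of STZ_D6, STZ_D30 and STZ_M2. A Sort1 UMI was found in 66.9% of control and 42.7% of STZ beta cells, and in 56.6% and 30.9% after thinning. No class here is known to lack Sort1. Acinar cells gave thinned shares of 18.6% in controls and 34.6% after STZ.

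Without implants Sort1 stood at 23.6 and 20.4 in beta cells, below every control, with a log2 difference of -1.47 ± 0.41 (SE; edgeR adjusted p = 0.0787). Its slope over time after STZ was -0.05 ± 0.08 (SE; adjusted p = 1.00). Among postnatal beta cells P3 had 60.5, the P12 libraries 42.5 and 62.7, and P21 had 102, and the test did not separate them from controls (log2 0.04 ± 0.25, SE; adjusted p = 0.970). P21 held the highest Sort1 level of any beta sum. In alpha cells the controls had 36.3 and 60.5 and the STZ libraries 15.4 to 52.5 (median 44.5), which overlap (log2 -0.27 ± 0.36, SE; edgeR adjusted p = 0.998). Delta cells had 45.2 and 91.5 in controls and 18.1 to 75.1 after STZ, and PP cells 17.9 and 21.6 against 13.2 to 51.1. Neither class was called at a minimum of 5 cells (edgeR adjusted p = 0.791 and 0.870). The order of classes in Sort1 was not resolved, since delta against alpha, PP against alpha and PP against delta differed by 0.14 ± 0.23, -0.38 ± 0.31 and -0.52 ± 0.31 (log2 ± SE; adjusted p = 0.761, 0.548 and 0.325).

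Sorl1, which encodes SorLA, was counted in ductal, immune, beta, delta and acinar cells. Control beta cells had 25.7, 41.4 and 43.0 CPM. After STZ with implants the values were 34.7 on day 6, 13.8 and 31.3 on day 12, 29.97 on day 30, 14.3 on day 42, 0 in month 2, 32.3 in month 5 and 50.8 in month 9. STZ libraries fell on both sides of the controls, 1 above and 3 below all of them, and the test did not separate the groups (log2 -0.39 ± 0.41, SE; edgeR adjusted p = 0.839). The zero of month 2 came from 8 cells, where it allows up to 7.58 CPM. Without implants Sorl1 was at 1.82 and 33.2 (log2 -1.03 ± 0.68, SE; adjusted p = 0.463). It was called lower (-4.45, adjusted p = 0.0115) only when replicate 2 was left out, on 1 UMI in 5 cells. Among postnatal beta cells P3 had 16.4, the P12 libraries 14.3 and 26.8, and P21 had 34.6 (log2 -0.84 ± 0.33, SE; adjusted p = 0.324). Sorl1 and Sorcs2 were found together in 67 of the 142 STZ beta cells with Sorcs2 (47.2%), and Sorl1 was found in 21.2% of those without Sorcs2, which were shallower cells.

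Among alpha, delta and PP cells, delta cells had more Sorl1. It was higher in delta than in alpha cells in 9 of 11 libraries (log2 2.16 ± 0.59, SE; edgeR adjusted p = 0.00636) and higher in delta than in PP cells in 6 of 6, all after STZ with implants (PP minus delta -4.74 ± 0.98, SE; adjusted p = 0.000563). PP cells held 4 Sorl1 UMIs in 167 cells. The difference of PP from alpha cells was -2.58 ± 1.02 (SE; adjusted p = 0.128). Without the STZ libraries the delta-minus-alpha difference was 3.36 with an adjusted p of 0.350. Sorl1 was higher in beta than in alpha cells in 10 of 11 libraries and than in delta cells in 8 of 10, which were not tested in adults. In the postnatal libraries alpha minus beta was -3.55 ± 1.33 (SE; edgeR adjusted p = 0.2001). Alpha cells of controls held 0 and 1 Sorl1 UMIs, and all 8 STZ libraries had higher levels, from 1.76 to 20.8 CPM (median 3.11). The share of all genes with such a separation was not counted. The highest, STZ_D42, had 65.3% of its 49 UMIs in 1 cell. The log2 difference was 3.88 ± 1.53 (SE; edgeR adjusted p = 0.920), a value that depends on the prior count with so few control UMIs. Delta cells of controls had 3.23 and 26.9, and STZ delta cells 0 to 33.9 (median 18.2). Ductal cells had 54.1 in controls and 48.8 after STZ, and acinar cells 9.54 and 14.3. Immune cells after STZ had 56.3 (66 UMIs in 37 cells).

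**Figure D4:**
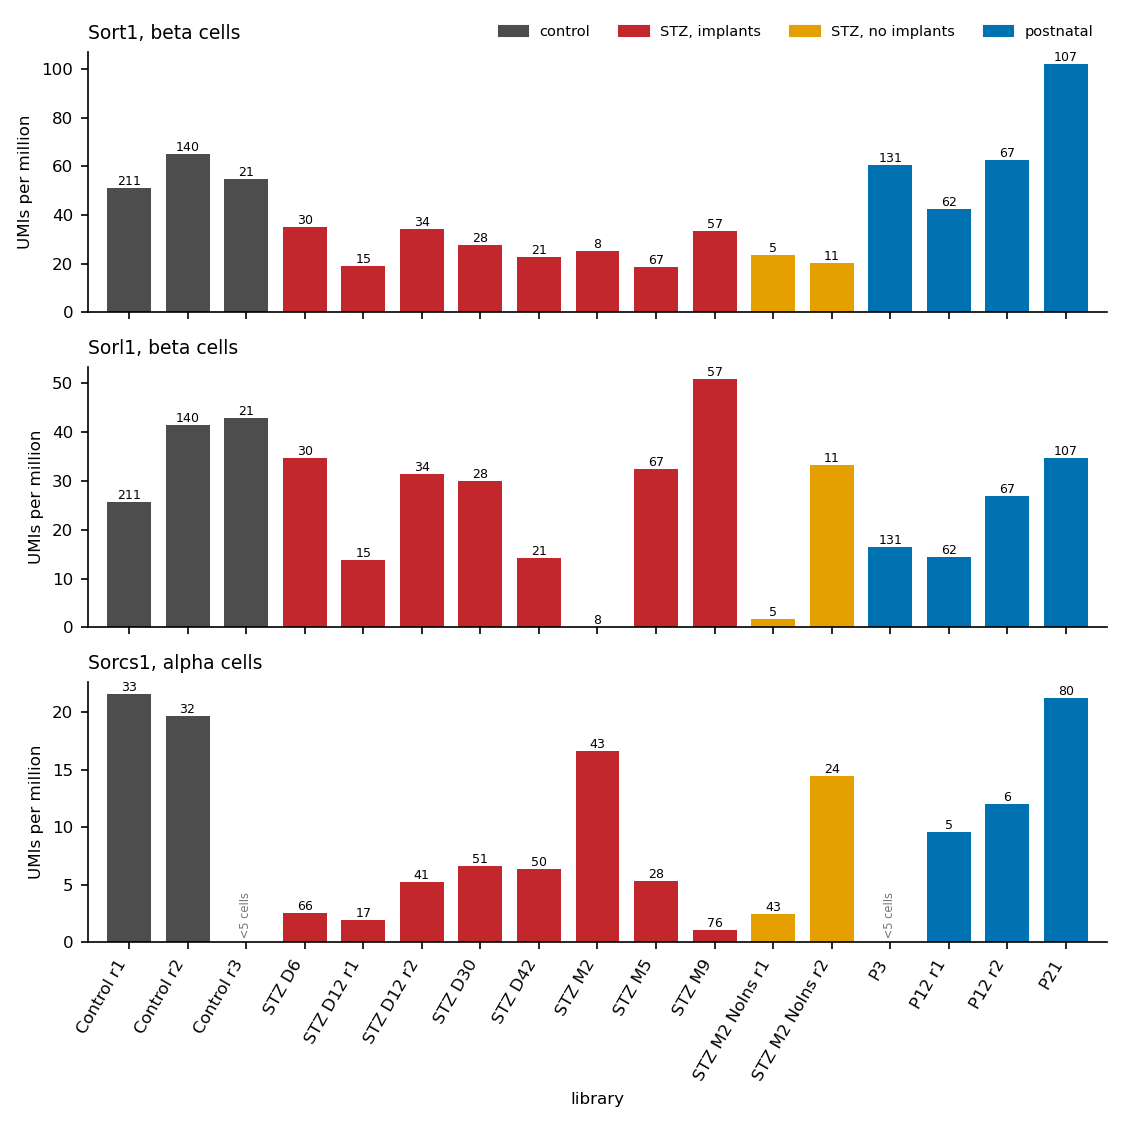
Levels of Sort1 and Sorl1 in beta cells and of Sorcs1 in alpha cells (CPM, 1 bar per library, linear axis from 0), with cell numbers above the bars and sums of under 5 cells left out. Sort1 is at 18.5 to 35.3 after STZ with implants and 51.1 to 65.1 in controls, Sorl1 overlaps between these groups, and Sorcs1 is at 1.06 to 16.6 after STZ and 19.7 and 21.5 in controls.

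Sorcs1, the member in the mouse diabetes locus, was counted mainly in alpha cells, which held 284 of its 538 UMIs. Control alpha cells had 21.5 and 19.7 CPM. After STZ with implants they had 2.52 on day 6, 1.92 and 5.28 on day 12, 6.62 on day 30, 6.35 on day 42, 16.6 in month 2, 5.29 in month 5 and 1.06 in month 9. All 8 lay below the 2 controls, and those without implants (2.42 and 14.4) did too. The share of all genes that separate the alpha sums in this way was not counted. The test across all genes did not call it (log2 -1.77 ± 0.69, SE; edgeR adjusted p = 0.920, unadjusted p = 0.0191), in a comparison where no gene was called. Counts were small, from 1 to 28 UMIs per STZ sum. A Sorcs1 UMI was found in 21.2% of 66 control and 7.53% of 372 STZ alpha cells, and in 21.6% and 8.58% after thinning, beside 0.269% of control beta cells. P21 alpha cells had 21.2. Delta cells had 19.4 and 0 in controls and 0 to 9.63 after STZ, and delta and PP cells did not differ from alpha cells in the edgeR test (adjusted p = 0.663 and 0.610).

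Beta cells held hardly any Sorcs1. The controls had 1 UMI in 372 cells, and 2 of the 3 were at 0. Among the STZ libraries 6 of 8 were at 0, with 2.53 in STZ_M2 (1 UMI) and 2.37 in STZ_M5 (12 UMIs, all in 1 cell). P3 had 1.75 (19 UMIs). Sorcs1 did not pass the filter in the main beta-cell fits. With no filter it was not called after STZ with implants (log2 3.17, edgeR adjusted p = 0.383), on the few UMIs just given. Of Sorcs3 the whole table held 27 UMIs in 12 cells, of which PP cells held 9, alpha cells 8, beta and acinar cells 5 each and delta cells 0. The 372 control beta cells held 0, which allows a share of cells with a UMI of up to 0.806% by the limit of 3 counts and of up to 0.987% by the exact 95% interval. Sorcs3 passed the filter in none of the main fits.

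Genes that act with the receptors were counted from lists chosen with earlier results of these data known. Of 24 genes of the retromer, its sorting nexins and the tail adaptors, all 24 were tested in beta cells after STZ with implants, 0 rose and 1 fell, where 1.66% of all genes were called higher and 1.1% lower, with a median log2 difference of -0.25 beside 0.00 over all genes. The one was Vps35, the core retromer subunit that retrieves these receptors from endosomes (-0.61 ± 0.16, SE; edgeR adjusted p = 0.0359). Its level was 193 to 222 CPM in controls and 114 to 179 after STZ. The call was made in 7 of 18 settings. It was lost without any 1 of the 3 controls, the STZ_D12 libraries, STZ_D42 or STZ_M9 (adjusted p from 0.0511 to 0.187) and with the replicate block (adjusted p = 0.262). It was also lost with thinned cells (-0.45, adjusted p = 0.316), with no filter (0.065) and without the cells rich in another hormone (0.138). Of 32 ligands and co-receptors 17 were tested, 0 rose and 1 fell (median -0.11). This was Lifr, the receptor subunit for leukemia inhibitory factor. Lifr was at 73.6 to 88.1 in controls and 3.81 to 35.3 after STZ (-1.98 ± 0.35, SE; edgeR adjusted p = 0.00270). In both lists DESeq2 called 2 genes.

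Proteases that process or shed the receptors gave 0 calls among 10 tested (edgeR; 1 at an unadjusted p under 0.05, 0 by DESeq2; median 0.08). Other cargo receptors of the Golgi and endosomes gave 0 calls among 17 (edgeR; 2 at an unadjusted p under 0.05, 2 by DESeq2; median 0.05). Of 24 granule and hormone processing genes 23 were tested, 2 rose and 2 fell, beside 1.66% and 1.1% of all genes, with a median of 0.10. Chgb, a granule protein, rose by 1.68 ± 0.22 (SE; edgeR adjusted p = 0.000149) from 1474 to 2232 CPM in controls to 4462 to 9668 after STZ. Pam, the peptide amidating enzyme, rose by 1.15 ± 0.18 (adjusted p = 0.000879) from 384 to 471 to levels of 631 to 1135. Sytl4, which tethers granules at the membrane, fell by 2.096 ± 0.29 on the log2 scale (adjusted p = 0.000269) from 222 to 275 to levels of 24.5 to 88.8. Slc30a8, the granule zinc transporter, fell by 1.69 ± 0.25 (adjusted p = 0.000656) from 694 to 866 to levels of 92.2 to 434. Lifr, Chgb, Pam, Sytl4 and Slc30a8 were called in 18 of 18 settings. Against the same controls, the STZ libraries without implants had Snx5, Ap1s2, Ntrk2 and Lifr lower within the first 2 lists, and 0 higher. In the granule list they had Chgb, Scg5 and Pam higher and Ins1, Ins2 and Sytl4 lower, beside the 2.15% of all genes called there. In postnatal beta cells edgeR called 0 genes of the 5 lists, with 21 at an unadjusted p under 0.05 and 6 called by DESeq2. It also called 0 in alpha cells after STZ (8 at an unadjusted p under 0.05, 0 by DESeq2) and 0 in delta cells (7 and 0), in PP cells (17 and 0) and in the trend over time (7 and 0).

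Likeness to other genes was measured over 46 sums of beta, alpha, delta and PP cells with at least 10 cells each, among 7179 genes, by Pearson's r of log2 CPM. The sums share libraries, and r is a description. They include control and STZ beta sums on which Sorcs2 was picked, so genes that rise there are favoured in its list. The genes most like Sorcs2 were Gpr179 (r = 0.83), Pam (0.79), Lgals3bp (0.74), Bcam (0.72) and Scn3a (0.69). Gpr179, an orphan receptor, had 0 to 4.72 in control beta cells, 8.28 to 59.6 after STZ in the 7 libraries with at least 10 cells, 27.8 to 84.2 in STZ delta and 15.9 to 31.5 in STZ alpha cells. Lgals3bp, a secreted glycoprotein, had 207 to 243 in control and 457 to 861 in STZ beta cells. Sort1 was most like Prrc2b (0.73), Smarca5 (0.67), Trim37 (0.65), Kidins220 (0.64) and Pdlim5 (0.64). Sorl1 was most like Scd2 (0.81), Iapp (0.81), Ghr (0.79), Rtn4 (0.78) and Emb (0.78). Iapp, which encodes amylin, had a control median of 50839 in beta and 26339 in delta cells and 3004 in alpha cells, the same order as Sorl1. The control delta values there come from 1 library of 11 cells, of which 9.09% held a Sorl1 UMI. The smaller control delta sum had 3.23 CPM of Sorl1. Sorcs1 was most like Dpp10 (0.68), Gnao1 (0.67), Gnas (0.67), Rps15a (0.67) and Rpl9 (0.65). Between members r was 0.14 for Sorcs2 and Sorcs1, -0.33 for Sorcs2 and Sort1, -0.09 for Sorcs2 and Sorl1, 0.26 for Sort1 and Sorl1, and -0.48 for Sorcs1 and Sorl1.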

How the data were processed

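UMI counts per gene and cell were deposited by the authors as 1 table. Per the labels' protocols, RFP-positive cells were sorted, picked singly by mouth pipette and amplified by modified STRT-seq. The submitters' processing notes name TopHat2 2.1.0, featureCounts 1.5.3, SAMtools 1.3.1, UMI-tools 0.5.0 and mm10, and the shallowest cell held 7751 UMIs. These deposited counts were summed per library and class, and sums entered a test with at least 10 cells, except those of beta cells compared between groups, which all entered. The 5 receptor genes, the gene lists and the contrasts were chosen with earlier results of these data known.

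Cells were clustered in Python 3.11.15 (scikit-learn 1.9.0, leidenalg 0.10.2) on 300 variable genes without the receptor genes, 15 components and 20 neighbours, at a resolution of 0.03 and then 0.1 for clusters of at least 600 cells. Another split at 0.1 was added after the data were seen. The 10 clusters were named from marker lists, and no doublet caller was run. Beta cells with at least 1000 UMIs of Gcg, Sst, Ppy, Pyy or Prss2 per 100000 were left out as an alternative. Sums were tested with edgeR 4.0.16 (R 4.3.3; quasi-likelihood F test, TMM, filterByExpr) over all genes that passed the filter, with Benjamini-Hochberg adjustment and a threshold of 0.05. The SE is the log2 difference divided by the square root of F. DESeq2 1.42.0 was an alternative. STZ against control used those 11 libraries, the mice without implants were compared in a fit of all 12 groups, the postnatal mice in a fit with the controls, and class contrasts used the library as a block. The trend took a month as 30 days. In delta and PP cells fewer than 2 controls had 10 cells, so the planned tests were replaced by ones with at least 5 cells. Genes named were the listed genes called in beta cells after STZ with implants (up to 5 per list) and the 5 genes with the highest r for each receptor. On simulated counts for beta cells after STZ with implants against control (10730 genes), 26 of 100 genes changed by a factor of 2, 86 of 100 changed by a factor of 8 and 6 of 10530 unchanged genes were called.

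The labels give each library a batch number of 1 to 3. Differences between numbers 1 and 2 over 7924 genes correlated between groups with r from -0.01 to 0.16, with 4 of 6 over 0.1. Control replicate 2 shared a file-name code with libraries numbered 1. The number was a block only as an alternative.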

Additional observations from a re-analysis of the deposited data

Results flagged for a closer look

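Sorl1 in beta cells of STZ_M2 lay apart from the other 7 libraries after STZ with implants, at 0.053 log2 CPM (0 UMIs in 8 cells). Sorl1 in delta cells of STZ_D6 also lay apart, at 0.053 log2 CPM (0 UMIs). In all, 20 sets of libraries were examined for a library lying apart, and chance alone does this in about 1 in 20 sets. The cluster of 36 P3 cells that was given no name, led by the ghrelin gene Ghrl and used in no comparison, held the receptor genes too. Its levels were 60.4 CPM of Sorcs2 (21 cells with a UMI), 70.1 of Sort1 (26 cells), 33.9 of Sorcs1 (9 cells) and 11.6 of Sorl1 (3 cells). The Sorcs1 value was above the 21.5 of the highest control alpha sum.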

How the results depend on the processing

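Of the receptors' values under the alternatives, 250 kept their direction and, where tested, their side of the threshold. Of the rest, 8 were lost, 3 were gained, 3 with no test moved and 10 reversed. The 250 include 14 values of Sorcs2 in the contrast on which it was picked, judged by size alone. Against the same controls, 7 Sorcs2 values without implants and 8 in postnatal mice are among the 250. Of the 8 lost, 2 were Sorcs2 without implants. Those comparisons are given above as descriptions. Those that reversed had main values near 0 or few control cells. Sort1 in postnatal beta cells ran from -0.20 (without P21) to 0.18 (without P12 replicate 1) and was -0.04 without control replicate 1. The slope of Sorl1 ran from -0.044 without STZ_M9 to 0.19 without STZ_D6. Sort1 in alpha cells ran from -0.57 without control replicate 1 to 0.12 without control replicate 2. In delta cells Sorcs2 was 0.036 without control replicate 2 and Sorl1 -0.55 without control replicate 1, and in PP cells Sorcs2 was 0.14 without control replicate 1. Without the STZ libraries delta minus alpha was -0.023 for Sort1 (-0.017 at a minimum of 5 cells, where PP minus alpha was 0.20 for Sorcs2).

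Counts of called genes moved more, while 46 others stayed within 1.5 times. In beta cells after STZ with implants (296), 546 were called by DESeq2, 487 with no filter, 93 with the replicate block, 449 with at least 20 cells, and 123 to 446 with 1 library left out. Without implants (286) these were 585 with DESeq2, 642 with no filter, 151 with the replicate block, 91 with 5 libraries only and 119 to 1700 with 1 library left out. For postnatal mice (61) they were 301, 549, 5 with the replicate block and 5 to 254. The trend (0) had 12 with DESeq2 and 0 to 2 with 1 library left out. Alpha cells (0) had 2 with DESeq2 and 5 with no filter. Delta cells (0) had 1 and 2 with a control left out, and PP cells (0) had 1 with DESeq2. Delta against alpha (2068) had 430 without the STZ libraries and 320 at a minimum of 5 cells. PP against alpha (879) then had 91, and PP against delta (1448) had 143. Postnatal alpha against beta (320) had 754 at a minimum of 5 cells, and delta against beta (589) had 387 with DESeq2. The cause was not tested.

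With the replicate block the call of Sort1 in beta cells after STZ was lost (adjusted p = 0.195), and Sorcs2 was 4.90 there. Alternatives that left out libraries after STZ or used 1 file-name code were chosen after seeing the data. Tests of delta and PP cells with at least 10 cells, their version with no filter, and PP contrasts without the STZ libraries at that minimum could not be run. Leaving out a P12 library cannot change the postnatal class contrasts, as those libraries have 1 class with enough cells. Depth limits Sorcs1 and Sorcs3 most, with 38 and 5 UMIs in 1015 beta cells.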
